A study of Drosophila melanogaster with 6 samples.

Results

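The genes pigs and shot encode proteins that link actin filaments to microtubules, and each was measured by 1 probe set in embryos of Drosophila melanogaster. The members were the probe sets whose single gene symbol in the array annotation is pigs or shot, 2 of 11982 genes with a probe set of their own and 2 of 18769 probe sets without controls. Both were detected on 6 of 6 arrays and passed the filter, detection (a present call) on 3 or more arrays, as did 10137 probe sets in all. The genes were selected on their signals in 6xbcd and 2xbcd embryos, so these signals are given as a description and without a test.

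Shot (short stop) is a spectraplakin, a giant protein that binds actin through calponin homology domains near its start and microtubules through a Gas2-related domain near its end. It is known for its roles in tendon cells, which anchor muscles to the epidermis, in growing axons and in the fusion of tracheal tubes. Pigs (pickled eggs) is a smaller protein of the Gas2 family, with a calponin homology and a Gas2-related domain, and has been described as a partner of Shot and of the microtubule plus-end protein Eb1.

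RNA of 6 embryo batches was hybridised to 6 arrays, 3 batches from mothers with 6 copies of bicoid (6xbcd) and 3 from mothers with 2 copies (2xbcd). Bicoid (bcd) is the maternal factor that patterns the head and thorax. For 6xbcd, bcd+t8 females were mated with TT16 males, and for 2xbcd, TT16 females were mated with TT16 males. The fathers' line was thus shared, while the mothers' stock, her bcd copies and the embryos' own genotype differed together and cannot be told apart. Each batch held over 100 whole dechorionated embryos, collected over 90 min and kept for 8 h at 25 degrees, at stages 12 to 13. The design text calls the arrays paired in 3 replicates with independent RNA samples. Each array had a present call for 9697 to 10474 probe sets. Of 24 markers fixed for neurons, muscle, trachea, salivary gland, tendon cells and maternal RNA, 19 had a probe set of their own and 17 were present on all 6 arrays. The exceptions were 2 genes of synapses, nSyb with no present call and brp with a present call on 1 array of 6xbcd. On their main axis of variation, which held 53.5% of the variance, 2xbcd replicates 2 and 3 lay highest, at 19.1 and 39.4, followed by 6xbcd replicate 2 at 6.87, and the other arrays lay between -22.3 and -21.4.

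The pigs probe set had a much lower signal in 6xbcd embryos. Its signal, an array intensity on a linear scale, was 129.1, 163.1 and 180.1 in 6xbcd replicates 1, 2 and 3, against 856.3, 835.4 and 1008.1 in 2xbcd replicates 1, 2 and 3. All 6xbcd arrays lay far below all 2xbcd arrays, and the lowest 2xbcd signal was 4.64 times the highest 6xbcd signal. Within a group the highest and lowest arrays differed by 1.40-fold in 6xbcd and by 1.21-fold in 2xbcd. Of all tested probe sets, 8.68% had every 6xbcd array below every 2xbcd array, which is the background for this description.

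The mean pigs signal was 157 ± 26.0 (SD, n = 3) on 6xbcd arrays and 900 ± 94.3 (SD, n = 3) on 2xbcd arrays, or 17.5% of the 2xbcd level. Set pair by pair, the 6xbcd signal was 15.1%, 19.5% and 17.9% of the 2xbcd signal in pairs 1, 2 and 3. The log2 change, computed on log2(signal + 16), was -2.41 (SE 0.116), and the pair differences had an SD of 0.170. Without 2xbcd replicates 2 and 3, the arrays highest on the main axis, and without a block it was -2.34. The pigs probe set had a present call on all 3 arrays of each group, so a signal was still detected in 6xbcd embryos. Because whole embryos were measured, fewer cells that express the gene and less RNA per cell cannot be told apart. Whether the sequence under the pigs probe set differed between the mothers' stocks was not tested.

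**Figure D1:**
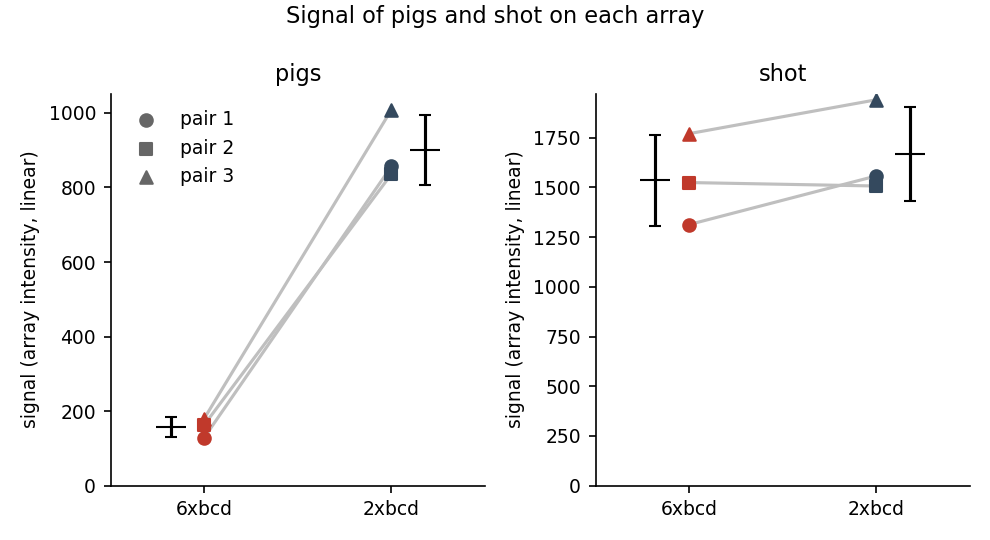
Signal of pigs (left panel) and shot (right panel) on each array, in linear intensity units, with 6xbcd left of 2xbcd; symbols mark the pair number, grey lines join arrays of a pair, and black bars are the mean and SD of 3 arrays. The pigs signals lay between 129.1 and 180.1 in 6xbcd and between 835.4 and 1008.1 in 2xbcd embryos, while the shot signals of the groups overlapped.

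The shot transcript had overlapping signals in the groups. It read 1313.3, 1524.7 and 1770.6 in 6xbcd replicates 1, 2 and 3, against 1557.8, 1507.3 and 1940.9 in 2xbcd replicates 1, 2 and 3. In both groups the array of replicate 3 was the highest. Set pair by pair, shot was lower in 6xbcd than in 2xbcd embryos in pairs 1 and 3 and slightly higher in pair 2. The mean signal was 1536 ± 229 (SD, n = 3) on 6xbcd arrays and 1669 ± 237 (SD, n = 3) on 2xbcd arrays, or 92.1% of the 2xbcd level. The log2 change was -0.12 (SE 0.0698), and the pair differences had an SD of 0.130. Without 2xbcd replicates 2 and 3 and without a block, the change was -0.03. By the suffix of its name, the probe set is of the kind that detects several transcripts of 1 gene, so its signal sums over such shot transcripts and does not show single isoforms.

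Shot varied more between batches of the same group than most probe sets of like brightness. Its coefficient of variation was 14.9% in 6xbcd and 14.2% in 2xbcd embryos, where the medians of 1550 probe sets within 0.5 log2 units of its mean were 7.61% and 8.50%. These values lay at percentiles 88.7 and 81.7 of those probe sets. For pigs the coefficients were 16.5% in 6xbcd and 10.5% in 2xbcd, beside medians of 11.7% and 12.4% over 1614 probe sets. The 2 highest shot signals came from arrays near opposite ends of the main axis of variation, 6xbcd replicate 3 at -21.6 and 2xbcd replicate 3 at 39.4.

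Set among all probe sets, pigs and shot stood at different places. Ordered from the most lowered log2 change, pigs was at rank 2 of 10137 and shot at rank 2337. The median log2 change over all tested probe sets was 0.01, and the median size of a change was 0.127. A log2 change of -1 or lower was found for 22 probe sets (0.217%) and one of 1 or higher for 162 (1.60%). Below pigs lay a single probe set with no gene symbol in the annotation, at -5.33. Above it lay CG1304, an X-linked gene at -2.04 that was absent on all 6xbcd arrays, and another probe set with no symbol, at -1.80. Of the 22 probe sets at -1 or lower, 17 had a chromosome in the gene table and 15 of these were X-linked, as pigs is (88.2%). Among all tested probe sets that the table places, the X-linked share was 16.1% (1411 of 8781). These neighbours in rank were named after their values were seen.

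**Figure D2:**
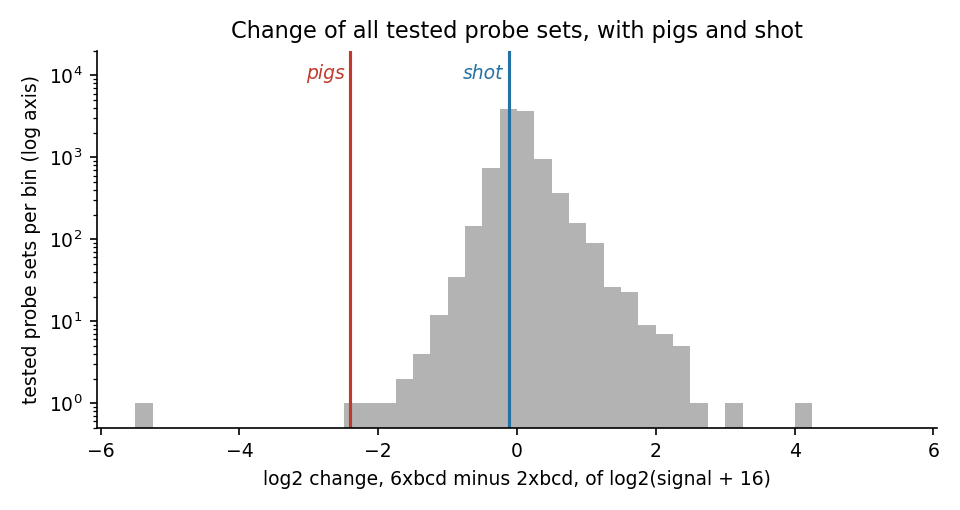
Histogram of the log2 change, 6xbcd minus 2xbcd, of 10137 tested probe sets in bins of 0.25 (log axis of counts), with vertical lines at pigs and shot. The line for pigs, at -2.41, stands in the thin left tail, and the line for shot, at -0.12, stands in the bulk.

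The authors' deposited table compares the arrays of each pair by itself. It gave pigs log2 ratios of -2.4, -1.5 and -1.8 in pairs 1, 2 and 3, with a decrease call in each pair. A decrease in all 3 pairs was called there for 1.01% of tested probe sets. Computed from the deposited signals with no offset, the log2 ratios of pigs were -2.73, -2.36 and -2.48. Signal ratios less those of the authors' deposited table were -0.330, -0.857 and -0.685 on the log2 scale, gaps larger in size than those of 90.7%, 99.4% and 98.6% of tested probe sets in the same pairs. The median gap over all tested probe sets was 0.0948, 0.0877 and 0.0822. The labels and headers do not say how the authors derived this ratio. For shot the authors' deposited table gave -0.1 in each pair, with a call of no change, as for 69% of tested probe sets in all 3 pairs, and the signals gave -0.25, 0.02 and -0.13.

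On the X chromosome, genes next to pigs did not share its large difference. Of the 15 nearest genes on each side in gene order, 20 of 30 had a probe set of their own and 18 were tested. None of the 18 passed an adjusted p of 0.05 in limma (a linear model over all probe sets with the pair number as a block), and 7 had an unadjusted p under 0.05, beside 1.32% of all probe sets for the adjusted and 14.9% for the unadjusted threshold. Their changes went both ways, 8 negative and 10 positive, with a median log2 change of 0.03 and a range of -0.80 to 0.54.

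The nearest tested gene on one side was APC7, a subunit of the anaphase-promoting complex, with 50.2 ± 12.7 on 6xbcd arrays and 30.6 ± 8.79 on 2xbcd arrays (SD, n = 3 each). Its log2 change was 0.50 (limma adjusted p = 0.363). On the other side it was CG14443, at 0.54 on the log2 scale (limma adjusted p = 0.656), which turned to -0.20 without replicate 3. The lowest p among the neighbours belonged to CG3918, with 1558 ± 220 on 6xbcd arrays and 2124 ± 95.5 on 2xbcd arrays (SD, n = 3 each), a log2 change of -0.45 and a limma adjusted p of 0.0566. The largest negative change was that of CG3198, at -0.80 (limma adjusted p = 0.187). CG3918 and CG3198 were named after their values were seen. With probe sets present on all 6 arrays, or without replicate 3, CG3918 passed (limma adjusted p = 0.0341 and 0.0387).

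Around shot on chromosome 2R, 18 of 30 neighbours were tested, 0 passed in limma and 2 had an unadjusted p under 0.05. Their median log2 change was -0.06, and the range was -0.44 to 0.57. The lowest value was that of mam, which encodes Mastermind, a coactivator of Notch, at -0.44 (limma adjusted p = 0.0566), named after its value was seen. On the chromosomes as a whole, limma called 3.83% of 1411 tested X-linked probe sets and 0.727% of 1789 on 2R.

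**Figure D3:**
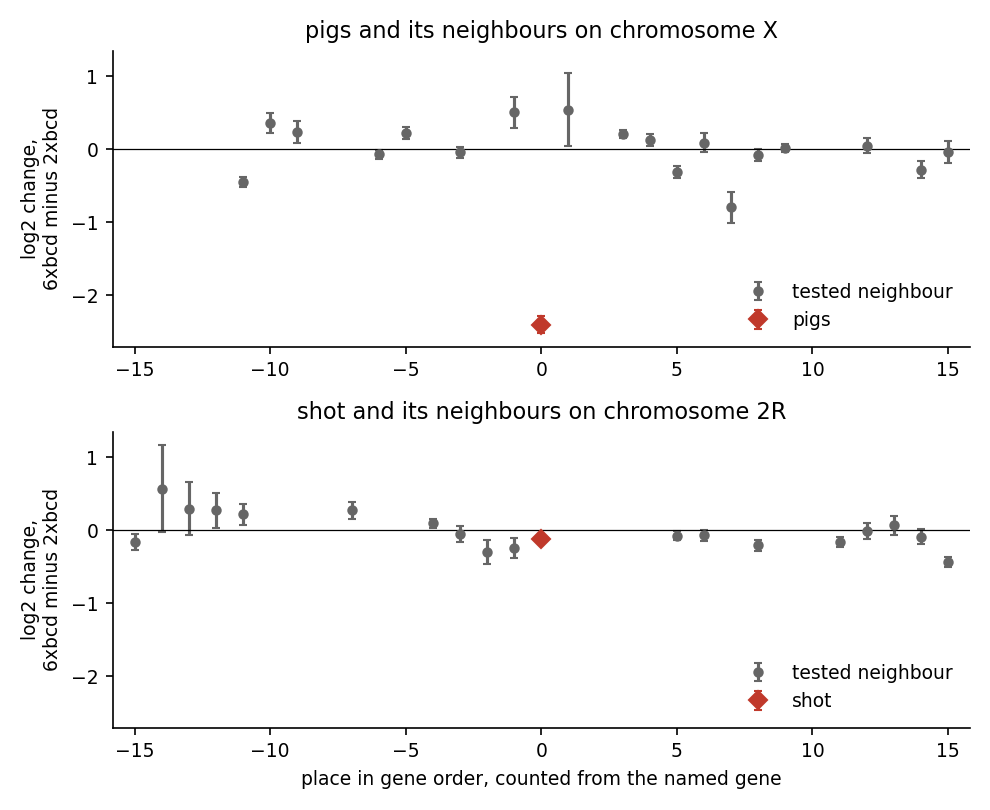
Log2 change, 6xbcd minus 2xbcd, with its standard error, of the tested genes among the 15 nearest on each side of pigs on X (upper panel) and shot on 2R (lower panel), by place in gene order. The neighbours of pigs lay between -0.80 and 0.54, and pigs at -2.41.

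Other genes of the cytoskeleton were read from lists, together with markers of tissues in which shot or pigs is known to act. Each gene was read from 1 probe set, that with the highest mean log2 value. The lists were chosen with earlier results of these data known. The share called in them and the adjusted p values of their called genes are thus a description. In all 13 lists, 124 of 166 genes were tested, and limma called 4 (3.23%), 2 lower and 2 higher in 6xbcd embryos. Over all probe sets it called 1.32%, 0.572% lower and 0.75% higher. Of the 124 list genes, 24 had an unadjusted p under 0.05 in limma, beside 14.9% of all tested probe sets.

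Among spectrins, actin linkers with calponin homology domains and linkers of the nucleus, 16 of 17 were tested. An unadjusted p under 0.05 was found in limma for 4 of them, beside 14.9% of all tested probe sets. In limma 1 gene was called lower, beside 0.572% of all tested probe sets. This was the X-linked Fim, the fimbrin gene, whose protein bundles actin filaments through calponin homology domains, the kind of domain that Pigs and Shot also carry. Its signal was 739.7, 830.9 and 1040.4 in 6xbcd replicates 1, 2 and 3, against 1446.6, 1600.3 and 1797.8 in 2xbcd replicates 1, 2 and 3. The groups did not overlap, with all 6xbcd below all 2xbcd arrays, as for 8.68% of tested probe sets. Its log2 change was -0.89 (SE 0.0655, limma adjusted p = 0.00936). When pair 1 or pair 2 was left out, the adjusted p was 0.0645 or 0.0984, and with a variance prior that ignores intensity it was 0.130, so the call was lost in each case. It was also lost without 2xbcd replicates 2 and 3 and without a block, at -0.74 on the log2 scale (limma adjusted p = 0.448), and the adjusted p ranged from 0.000252 to 0.448 over the alternatives run. The list had 12 negative and 4 positive changes and a median log2 change of -0.07, beside 0.01 for all tested probe sets.

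Proteins that bind the tips or walls of microtubules, where Pigs and Shot bind too, had 0 of 14 tested genes past the threshold in limma and 0 with an unadjusted p under 0.05. Their median log2 change was -0.01. The smallest p values were those of mars, a spindle protein, at 0.32, tau, an axonal microtubule protein, at 0.74, and spas, the severing enzyme spastin, at 0.21 (limma adjusted p = 0.358, 0.426 and 0.527). The tau signal was low, at 90.4 in 6xbcd and 54.1 in 2xbcd embryos, and its change turned to -0.09 without 2xbcd replicates 2 and 3. Eb1 had no probe set of its own under the annotation and is not analysed here. Of the tubulins and microtubule motors, 11 of 14 were tested, and 0 passed or had an unadjusted p under 0.05. Log2 changes of the tubulin genes alphaTub84D, betaTub56D and betaTub60D were 0.53, 0.23 and -0.22 (limma adjusted p = 0.366, 0.416 and 0.528).

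Genes of actin dynamics and myosin had 0 of 13 tested members past the threshold in limma and 1 with an unadjusted p under 0.05. That member was SCAR, an activator of branched actin assembly, at -0.17 (limma adjusted p = 0.279). Mbs, the myosin phosphatase binding subunit, stood at -0.13 and cpa, a capping protein subunit, at 0.12 (limma adjusted p = 0.487 and 0.537). All members of this list lay between -0.17 and 0.12.

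In the list of integrin adhesion linkers, which join the cytoskeleton to the matrix at muscle attachments, 0 of 11 tested genes passed. An unadjusted p under 0.05 was found in limma for 2 of them, beside 14.9% of all tested probe sets. The integrin genes if and scb had log2 changes of -0.51 and -0.19, and Zyx, the zyxin gene, -0.14 (limma adjusted p = 0.148, 0.224 and 0.350). Changes were negative for 9 of 11 members, with a median of -0.10, beside 0.01 for all tested probe sets. The integrin beta subunit gene mys, named after its values were seen, was at 0.33 (limma adjusted p = 0.374). It was called higher without replicate 3 (0.56, limma adjusted p = 0.00518) and with the main axis as a covariate (0.58, limma adjusted p = 0.0312). Of the 2 tested probe sets of mys, these values cover only the one with the higher mean. At adherens junctions, 0 of 6 tested genes passed in limma and 1 had an unadjusted p under 0.05. There p120ctn stood at -0.16 (limma adjusted p = 0.311), while alpha-Cat, at -0.04, and pyd, at -0.01, were positive after quantile normalization.

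Tendon cell genes, markers of a tissue where shot is known to act, had 0 of 5 tested members past the threshold in limma and 0 with an unadjusted p under 0.05. Tsp, the thrombospondin gene, had a log2 change of -0.15, tx, which encodes the transcription factor delilah, of -0.20 and sr, the tendon cell regulator stripe, of -0.20 (limma adjusted p = 0.440, 0.444 and 0.548). The summed signal of the list was 2667 to 3069 on 6xbcd arrays and 3041 to 3427 on 2xbcd arrays. In the trachea list 0 of 8 tested genes passed in limma and 3 had an unadjusted p under 0.05, beside 14.9% of all tested probe sets. Here 8 of 8 changes were negative, with a median of -0.19, beside 0.01 for all tested probe sets. Among them were the transcription factor genes kni at -0.18, knrl at -0.30 and vvl at -0.28 (limma adjusted p = 0.269, 0.291 and 0.317). With the main axis of variation as a covariate vvl was at 0.01. Summed signals of the trachea list were 9992 to 11387 on 6xbcd and 10833 to 14107 on 2xbcd arrays.

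The salivary gland list, with genes of its tube formation, had 9 of 11 genes tested. An unadjusted p under 0.05 was found in limma for 2 of them, beside 14.9% of all tested probe sets. In limma 1 gene was called lower, beside 0.572% of all tested probe sets. This was fog, an X-linked gene whose secreted protein triggers the apical constriction of epithelial cells. It read 805.9, 807.2 and 868.2 in 6xbcd replicates 1, 2 and 3, against 1586.5, 1601.0 and 1777.6 in 2xbcd replicates 1, 2 and 3. The groups did not overlap, with all 6xbcd below all 2xbcd arrays, as for 8.68% of tested probe sets. The log2 change of fog was -0.99 (SE 0.0578, limma adjusted p = 0.00498). Leaving out pair 2 (adjusted p = 0.0746) or ignoring intensity in the variance prior (0.1002) lost the call, as did leaving out 2xbcd replicates 2 and 3 with no block (log2 change -0.93, adjusted p = 0.0868). Summed signals of this list were 13543 to 14057 on 6xbcd and 14073 to 15604 on 2xbcd arrays. Without fog the sums of the other 8 genes overlapped, at 12737 to 13249.5 on 6xbcd and 12487 to 13827 on 2xbcd arrays. The part of these tissue lists in the pigs difference was not tested.

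Among Notch pathway genes, 10 of 16 were tested, and 4 had an unadjusted p under 0.05 in limma, beside 14.9% of all tested probe sets. In limma 2 were called higher, beside 0.75% of all tested probe sets. Both were of the Enhancer of split complex, whose genes Notch signalling switches on. The list had 7 positive and 3 negative changes and a median log2 change of 0.03, beside 0.01 for all tested probe sets. Other tested genes of the complex were not called. E(spl)mdelta-HLH was at 0.30, and E(spl)m3-HLH, E(spl)m7-HLH, E(spl)mbeta-HLH and E(spl)malpha-BFM were at -0.06, 0.04, 0.07 and 0.02. E(spl)m5-HLH read 972 in 6xbcd and 553 in 2xbcd embryos on average, a log2 change of 0.78 (limma adjusted p = 0.0207). E(spl)m4-BFM read 1268 in 6xbcd and 731 in 2xbcd embryos, a log2 change of 0.80 (limma adjusted p = 0.0435). For both genes the groups overlapped. The lowest 6xbcd signals, 644.1 and 865.2, lay below the highest 2xbcd signals, 660.3 and 960.7. Both genes lost the call without the replicate block (limma adjusted p = 0.395 and 0.427). They also lost it without replicate 1 or without replicate 2, with adjusted p values of 0.0830 to 0.178. With 2xbcd replicates 2 and 3 left out and no block, their log2 changes were 1.25 and 1.34 (adjusted p = 0.410 and 0.332).

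Markers of muscle, neurons and maternal RNA had 0 of 6, 0 of 5 and 0 of 10 tested members past the threshold in limma. In the same order, 1, 2 and 4 members had an unadjusted p under 0.05, beside 14.9% of all tested probe sets. The 6 muscle genes had 4 positive changes and a median log2 change of 0.29, while Hand, a regulator of heart and visceral muscle, was at -0.45 (limma adjusted p = 0.0532). Tm2, a tropomyosin gene, was at 0.54 and sls, the titin gene, at -0.07 (limma adjusted p = 0.598 and 0.672). Without 2xbcd replicates 2 and 3 and without a block, Tm2 was at -0.62 and sls at 0.0669. Of the neuronal genes, Appl, the amyloid precursor protein gene, was at 0.95, fne, an RNA-binding protein gene, at -0.37 and nrv3, a sodium pump subunit gene, at 0.80 (limma adjusted p = 0.0589, 0.265 and 0.412). Without those arrays nrv3 was at -0.48.

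Among maternal RNAs, 8 of 10 members had positive changes. The smallest p values were those of swa, which helps to localise bcd RNA, at 0.72, png, a kinase gene of egg activation, at 1.54, and aub, an Argonaute gene of the germ line, at 0.43 (limma adjusted p = 0.138, 0.150 and 0.152). The swa change was 0.28 with the main axis as a covariate and 0.0252 without 2xbcd replicates 2 and 3 and without a block. The png signal was low, at 70.8 in 6xbcd and 15.6 in 2xbcd embryos on average, and its log2 change was 2.65 with an offset of 1 and 0.77 with an offset of 64. It was called higher without replicate 3 (1.90, limma adjusted p = 0.0205). The fourth member with an unadjusted p under 0.05, stau, an RNA transport gene, went the other way and was named after its value was seen. It averaged 1323 in 6xbcd and 1596 in 2xbcd embryos, a log2 change of -0.27 (limma adjusted p = 0.165). Summed signals overlapped between the groups for muscle, at 4584 to 5935 on 6xbcd and 3704 to 7272 on 2xbcd arrays, and for maternal RNA, at 18152 to 23037 on 6xbcd and 16198 to 21729 on 2xbcd arrays.

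**Figure D4:**
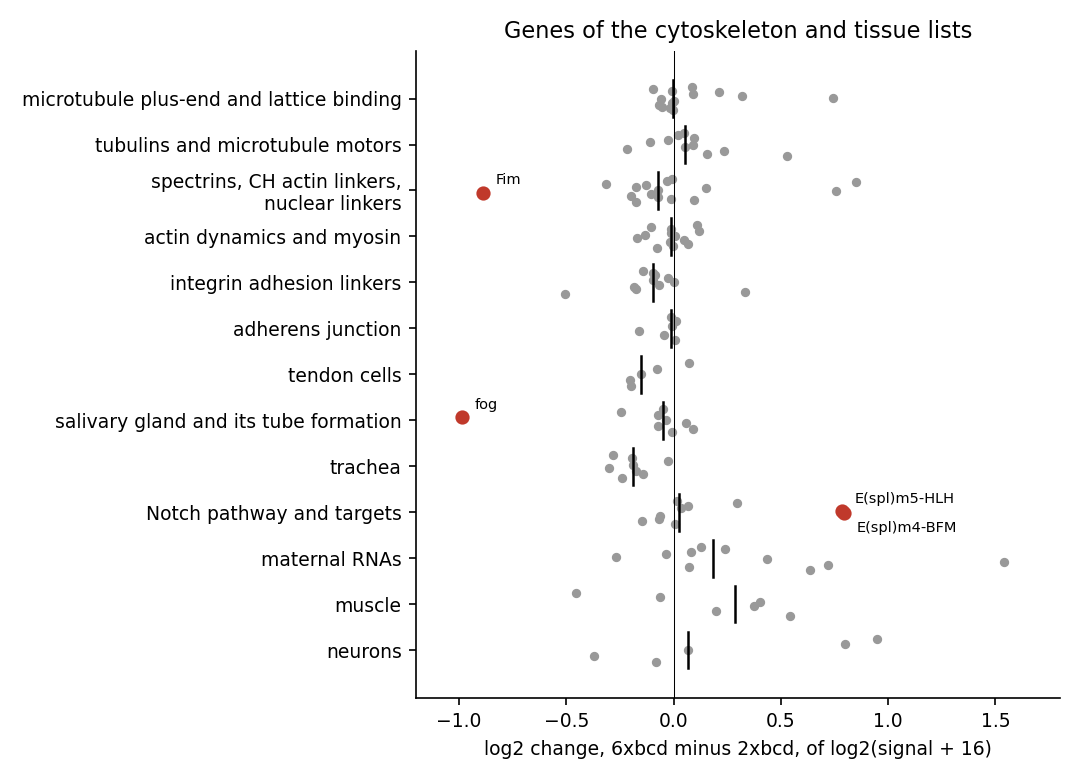
Log2 change, 6xbcd minus 2xbcd, of each tested gene in 13 lists, with the list median as a black bar and genes past an adjusted p of 0.05 in red. Fim and fog lie at -0.89 and -0.99, and 2 Enhancer of split genes at 0.78 and 0.80, while the list medians lie between -0.19 and 0.29.

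Genes whose profile was most like that of pigs were found by Pearson's r over the 6 arrays, on log2(signal + 16), among 8801 other tested probe sets with a single symbol. The profile of pigs is set mainly by the difference between the groups, on which it was picked, so these values describe the arrays and are not tested. Highest was fog, with r = 0.997, followed by Ras64B, a Ras-family GTPase gene, with 0.994, Acat1 with 0.992, Acyp2 with 0.986, CG7763 with 0.985 and CG31313 with 0.985. All 6 were lower in 6xbcd, by much less than pigs, with log2 changes of -0.99, -0.21, -1.01, -0.33, -0.56 and -0.78. Only fog and Acat1 of these are X-linked. An r over 0.9 was found for 214 probe sets (2.43%).

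For shot the most similar profiles were those of CG12091 (r = 0.983), Nop17l (0.981), CG18545 (0.979), alpha-Man-IIb (0.977), CG5235 (0.976) and kay, the Fos transcription factor gene (0.974), none of them X-linked. Their log2 changes between the groups lay between -0.26 and -0.06, and, as for shot, the highest arrays were those of replicate 3 in each group. An r over 0.9 was found for 127 probe sets (1.44%).

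**Figure D5:**
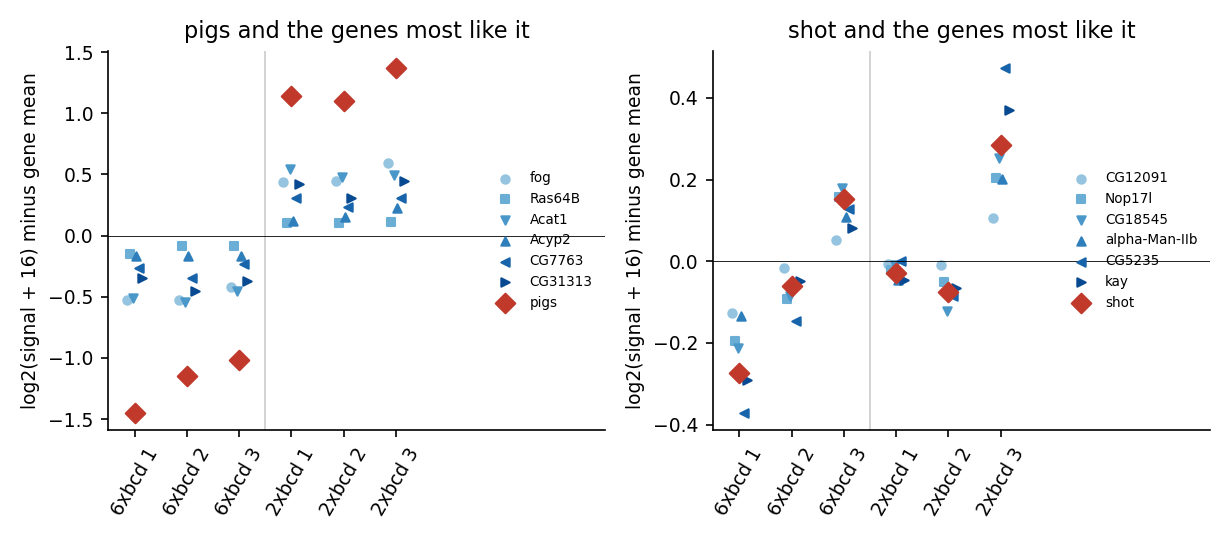
Log2(signal + 16) on each array, less the mean of each gene over 6 arrays, for pigs and the 6 genes most like it (left panel) and for shot and the 6 most like it (right panel), with 6xbcd arrays left of 2xbcd arrays. The pigs points lie below the mean of the gene on every 6xbcd array and above it on every 2xbcd array; shot is highest on the replicate 3 array of each group.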

How the data were processed

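Total RNA (RNeasy, DNase I) was labelled by the One-Cycle procedure for GeneChip Drosophila Genome 2.0 arrays, per the labels' protocols. Per the submitters' processing notes the authors used GCOS (version not given there). The signal they deposited is an intensity, scaled by the authors to a trimmed mean of 500 per array (2% left out at each end), as the values show. Signals were identical in both tables. Per the file headers, the larger table adds a detection call for each array and, for each pair, the authors' change call, log2 ratio and change p-value (at most 0.00191 for increases and at least 0.998 for decreases).

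Of 18952 probe sets, 183 controls were left out. Of 18769, 13647 had 1 symbol, 402 several and 4720 none. Symbols, chromosome and gene order came from RefSeq's table for Release 6 plus ISO1 MT by Entrez number (13544 matched). No sequence was used here.

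The test was limma 3.58.1 (R 4.3.3; Python 3.11.15, pandas 2.3.3) on log2(signal + 16), with an intensity trend, the replicate number as a block, and two-sided Benjamini-Hochberg adjusted p values over 10137 probe sets. Residual and prior degrees of freedom were 2 and 3.56. The block follows the design text, which pairs the arrays; deviations of same-numbered arrays correlated at 0.437, 0.385 and -0.190. For arrays, their number limits the precision. On simulated data of this comparison (10137 probe sets, 5 runs) the fit recovered 77% of changes of 1 log2 unit and 98.4% of those of 2, with 8.33% false calls. The simulated noise was independent between probe sets, with a pair effect of equal size in every pair. It held no main axis shared by probe sets, as these arrays have, so the rates apply to that setting only.

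The members and lists were chosen with earlier results of these data known. Named were both members, list genes past the threshold or else up to 3 with the smallest p, called and nearest neighbours of pigs, and the 6 genes most like each member. The neighbours of shot were added after seeing the data.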

Additional observations from a re-analysis of the deposited data

How the results depend on the processing

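The pigs log2 change kept its sign under every alternative that could alter it, and ranged from -2.49 to -2.32 when each pair was left out. It was -2.12 with an offset of 64 and -1.9 as the mean of the ratios in the authors' deposited table. The shot change, from -0.19 to -0.06 with a pair left out, was negative under every alternative that could alter it. The block, the filter, the intensity trend and the choice of deposited table cannot alter the log2 change of a probe set here. Under these alternatives pigs and shot stayed at -2.41 and -0.12 by design. Without replicate block, the count of list genes called was 2 in place of 4. With probe sets present on all 6 arrays, 197 probe sets were called (103 higher, 94 lower), with 1 gene called next to pigs and 1 next to shot. Without the intensity trend 5 probe sets were called (4 higher, 1 lower) and 0 list genes. With the main axis as a covariate, chosen after seeing the data, 2 list genes were called, fog (lower) and mys (higher). Without a block and without 2xbcd replicates 2 and 3, also chosen after seeing the data, 15 probe sets were called (11 higher, 4 lower) and 0 list genes; the lone 2xbcd array was assumed to vary like the others. At an adjusted p of 0.1, 247 were called (130 higher, 117 lower), with 1 gene next to pigs and 1 next to shot. Leaving out a pair gave 10 to 270 called probe sets (7 to 150 higher, 3 to 120 lower), 0 to 8 list genes, 0 to 1 gene next to pigs and 0 next to shot, against 134, 76, 58, 4, 0 and 0 with all pairs. The causes were not tested.

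Of the named genes other than pigs and shot, none that limma called reversed. Others did. With each pair left out in turn, CG14443 ranged from -0.20 to 0.98, Tm2 from -0.13 to 1.06, alpha-Cat from -0.0829 to 0.0043 and pyd from -0.0531 to 0.0301. After quantile normalization, alpha-Cat was at 0.0188 and pyd at 0.0355. With the main axis as a covariate, Tm2 was at -0.23, alpha-Cat at 0.0202, pyd at 0.0192, sls at 0.0017 and vvl at 0.0052. Without 2xbcd replicates 2 and 3, Tm2 was at -0.62, alpha-Cat at 0.0491, alpha-Man-IIb at 0.0175, nrv3 at -0.48, pyd at 0.0283, sls at 0.0669, tau at -0.0944 and vvl at 0.24. Over the genes named by rule and all alternatives, the adjusted p of 0.1 included, a call was lost in 34 cases and gained in 8. Genes named after their values were seen are not in these counts. Among those, CG3918, mam and mys gained a call under some alternatives.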
